A study of Mus musculus with 14 samples.

Results

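The 35 genes described here are markers of the crypt stem cell and components or targets of the Wnt pathway, taken as a list of gene names, among the 55889 genes of the table from mice without dextran sulfate sodium (DSS) and the 54721 genes of the table from mice given DSS. They comprised 13 stem cell markers, 5 receptors, 5 feedback inhibitors, 5 effectors and 7 Wnt targets, and all 35 were listed in both tables. The study sequenced colon RNA from 14 C57BL/6N mice, of which 4 were wild type (WT) and 4 were miR-29ab1-/- (knockout, KO) without DSS, and 3 were WT and 3 were KO after DSS. The KO mice lack the Mir29a and Mir29b-1 gene cluster in every cell of the body, whereas the Mir29b-2 and Mir29c cluster on another chromosome was not targeted. The study's methods give littermates aged 8 to 12 weeks and matched for sex as the rule, and the sex of the sequenced mice is not given in the sources used here. The DSS mice received 3.5% DSS, which injures the colon epithelium, and their RNA was taken after 3 days. GEO describes the source as crypts of the small intestine and the study's text describes it as colon, so the tissue was checked on its markers: without DSS, 6 genes of colon identity summed to 1517 to 4553 CPM (counts scaled by effective library size) per mouse and 10 genes of the small intestine to 163 to 287 CPM. In the 14 mice, 10 genes of general epithelium summed to 10266 to 25606 CPM, whereas 6 genes of smooth muscle summed to 1.09 to 4.06 CPM and 3 of endothelium to 0.941 to 4.84 CPM, so markers of the muscle wall and vessels were nearly absent. The DSS and no-DSS mice were 2 experiments in separate tables, so an effect of DSS and a difference between the experiments cannot be told apart.

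The intestinal lining renews itself from stem cells at the base of the crypts. Wnt ligands bind Frizzled and Lrp receptors on these cells, which keeps β-catenin from being degraded, and β-catenin then enters the nucleus and activates genes together with the TCF and LEF proteins. R-spondins bind Lgr4 and Lgr5 and so hold back Rnf43 and Znrf3, ubiquitin ligases that remove Frizzled from the cell surface. Axin2, Nkd1, Notum, Rnf43 and Znrf3 are induced by the pathway and act back on it as inhibitors. Lgr5 and Ascl2 mark the cycling stem cells at the crypt base, and Ephb2 and Ephb3 are receptors that sort cells along the crypt.

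The mature strands of the family are shown because the deletion removed some of its members and left others. Each is given 5′ to 3′ from RefSeq (GRCm38.p6), with the seed, bases 2 to 8, in capitals. miR-29a lies at chr6:31062673-31062694 and miR-29b-1 at chr6:31063025-31063047, both on the minus strand, and miR-29c lies at chr1:195037600-195037621 on the plus strand beside another copy of miR-29b.
miR-29a-3p: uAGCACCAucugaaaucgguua
miR-29b-3p: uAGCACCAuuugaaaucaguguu
miR-29c-3p: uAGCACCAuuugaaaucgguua
The 3 strands share the same seed. Its complement, TGGTGCT, was searched on the sense strand of the 3′ UTRs of GENCODE vM21 (GRCm38) and was present in 9 of the 35 genes (25.7%), namely Cdca7, Fzd5, Lrp6, Rnf43, Ctnnb1, Apc, Cd44, Ephb3 and Ccnd2. Of 13399 tested genes with a 3′ UTR, 15.2% held it. The 35 genes had longer 3′ UTRs (median 1895 bases against 1141), and the density was 0.138 matches per kb against 0.112. Lgr5, Ascl2, Smoc2 and Axin2 held none. The matches of Ephb3 and Cdca7 are shown because these were the match-bearing genes with a genotype difference after DSS at an unadjusted p of 0.05, and those of Ccnd2 and Lrp6 because each holds 2, with the match in capitals and 11 bases on either side.
Ephb3, chr16:21223026-21223054, plus strand: ctgcctaccctTGGTGCTgtcataaaagg
Cdca7, chr2:72486777-72486805, plus strand: tactctgtctgTGGTGCTcagttggatct
Ccnd2, chr6:127129391-127129419, minus strand: cccctaactttTGGTGCTgattagcatgt
Ccnd2, chr6:127127746-127127774, minus strand: ctgagtctggtTGGTGCTgagtctacagc
Lrp6, chr6:134446796-134446824, minus strand: agtgaaggatcTGGTGCTgcttttgctgt
Lrp6, chr6:134446684-134446712, minus strand: ctttggaatgaTGGTGCTttgcaaggatg
A match is a description of the sequence and was not tested as a target site. The letters CTTTGAT, a core of the TCF and LEF motif, were searched on both strands from 250 bases before to 50 bases after the start of each gene in RefSeq (GRCm38.p6). They were found in 1 of 34 promoters (2.94%) of the 22 genes that matched, that of Tnfrsf19, against 3.73% of 32851 promoters.

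Libraries held 14231157 to 18185020 counts without DSS and 20076719 to 23153149 after DSS, and each WT library without DSS was larger than each KO library. Mir29a was at 0 counts in every mouse and Mir29b-1 at 0 or 1, WT mice included, so the targeted genes themselves do not check the labels. Gm27019, a transcript at chr6:31063092-31063495 next to Mir29b-1 with which it shares its outermost bases, had 0 to 2 counts in WT mice and 273 to 411 in KO mice without DSS, and 0 against 151 to 237 after DSS, which separated every KO library from every WT library. KO mice 1 and 2 after DSS stood apart from the other mice of that experiment. Mitochondrial genes took 14.8% and 20.2% of their counts, against 7.43% in KO mouse 3 and 6.15% to 8.81% in the WT mice after DSS. Without DSS the share ran from 5.71% to 13.9%, so that of KO mouse 1 was close to the highest there. The main counts are also given without these mice. Mice of the DSS experiment are numbered as the table's columns number them, and these numbers are not those of the labels.

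The 35 genes spanned a wide range of levels in the WT colon without DSS, compared here as CPM per kb of gene length (mean ± SD, n = 4). Ctnnb1, which encodes β-catenin, was the highest at 127 ± 13.7, followed by Slc12a2, a sodium, potassium and chloride cotransporter, at 55.8 ± 7.04 and Prom1, a membrane glycoprotein also known as CD133, at 38.8 ± 4.15. Lrig1, a membrane protein that restrains growth factor receptors, stood at 30.4 ± 1.30, and Lgr4 at 25.7 ± 4.27. Of the 34 pairs of neighbours in this order, 30 had overlapping ranges, and those that did not were the first 4 genes from one another and Nkd1 from Notum. The pathway reporter Axin2 reached 8.74 ± 1.97. Ascl2, the transcription factor of crypt base stem cells, was at 7.49 ± 2.02 and Smoc2, a secreted matrix protein, at 5.15 ± 0.459. Lgr5 itself was low at 1.62 ± 0.525, between Znrf3 at 2.27 ± 0.298 and Tnfrsf19 at 1.19 ± 0.513, and overlapped both. Notum, a secreted enzyme that inactivates Wnt ligands, and Lef1 were at 0.127 ± 0.0868 and 0.0455 ± 0.0336 and lay near the floor of 3 counts (0.141 to 0.195 CPM before division by length). Notum did not pass the filter on low counts in any comparison, and Lef1 passed only with all 14 mice.

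**Figure D1:**
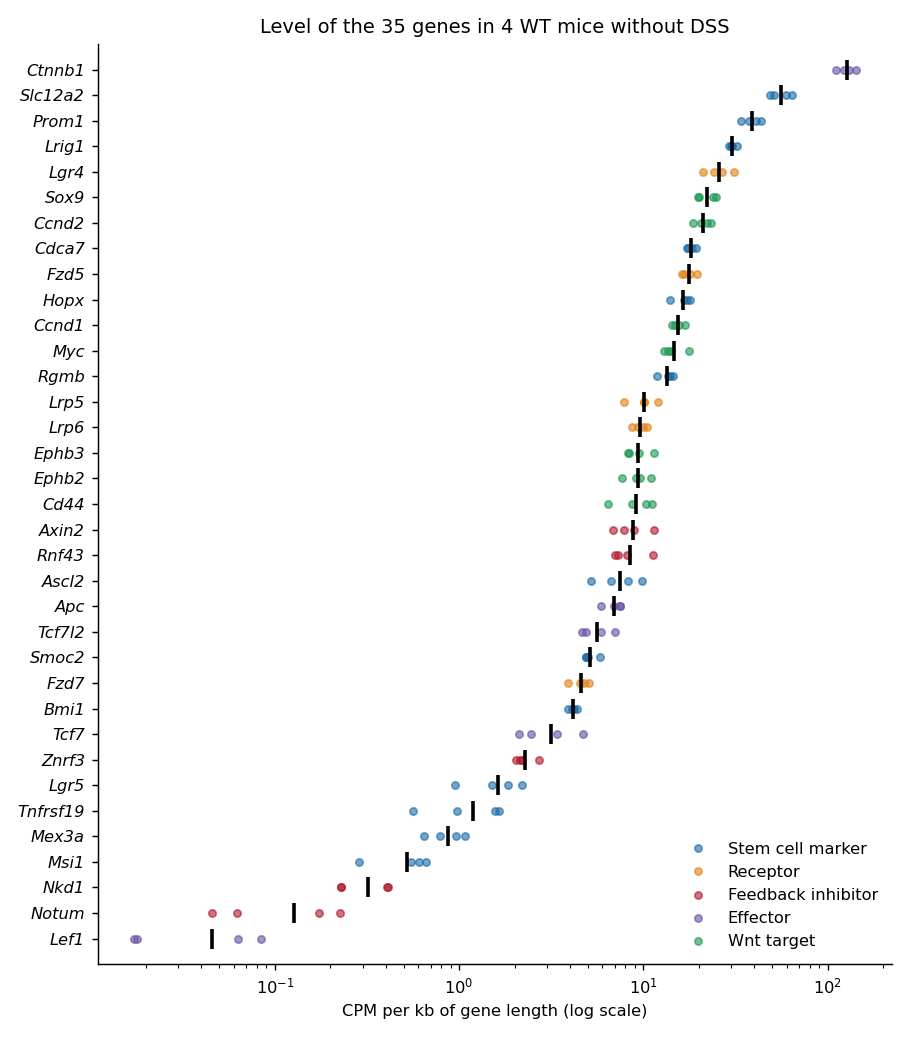
CPM per kb of gene length (log scale) of the 35 genes in the 4 WT mice without DSS; points are mice, bars are means, and colours give the role. Ctnnb1 stands at the top with a mean of 127 and Lgr5 near the bottom with 1.62.

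Without DSS, the first question was whether the deletion alone altered these genes. Of the 33 genes that could be tested, 1 was lower in KO mice, Smoc2, and none was higher at an unadjusted p of 0.05, the cutoff used for genotype throughout. Its levels were 34.1, 33.8, 34.7 and 40.5 CPM in the WT mice and 31.6, 29.8, 31.2 and 24.2 CPM in the KO mice, so the groups did not overlap. The log2 fold change (KO minus WT) was -0.29, SE 0.11, unadjusted p = 0.0193, adjusted p = 1, adjusted over 15441 genes (edgeR quasi-likelihood test, Benjamini-Hochberg). Among all genes tested, 1.58% were lower and 2.09% higher by this unadjusted rule, so 1 lower gene of 33 is close to the background. Smoc2 no longer passed without WT mouse 4 or without KO mouse 4, nor in a fit over all 14 mice.

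Lgr5 ranged from 9.77 to 22.4 CPM in WT and from 11.9 to 14.6 CPM in KO mice without DSS, and its KO values lay inside the WT range (log2 fold change -0.33, SE 0.22, unadjusted p = 0.172, adjusted p = 1). The overlap rested on WT mouse 2, at 9.77 CPM. Without that mouse Lgr5 passed the unadjusted rule (-0.52, unadjusted p = 0.00834, adjusted p = 0.894, edgeR), in 1 of 8 fits that left out a mouse. Axin2 ranged from 37.6 to 62.9 CPM in WT and from 28.2 to 64.5 CPM in KO mice (log2 fold change 0.10, SE 0.26, unadjusted p = 0.724, adjusted p = 1), a difference below its standard error. Of the 33 genes, 16 had a negative and 17 a positive log2 fold change, with a median of 0.0085 beside -0.0016 for all genes. The values ran from -0.33 for Lgr5 to 0.47 for Nkd1, a cytoplasmic inhibitor at 1.04 to 2.54 CPM. At an adjusted p of 0.05, edgeR called 0 of the 33 genes, and so did DESeq2. The 9 genes with a seed match had a median of 0.09 and the 24 without one a median of -0.01, and no match-bearing gene passed the unadjusted rule.

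After DSS, most stem cell markers were far lower than without it, in both genotypes. In WT mice 19 of 34 genes (55.9%) fell and 4 rose at an adjusted p of 0.05 (edgeR), where 18.1% of 16370 genes fell and 20.2% rose. In KO mice 22 (64.7%) fell and 7 rose, where 22.7% of all genes fell and 23.2% rose. The median log2 fold change (DSS minus no DSS) of the 34 genes was -0.59 in WT and -0.995 in KO mice, beside -0.02 and -0.03 for all genes. Scaling by total counts in place of TMM factors shifted the median log2 fold change of all genes by -0.24 in WT and -0.36 in KO mice. Under that scaling 22 genes fell and 1 rose in WT mice, and 25 fell and 1 rose in KO mice. The shares of all genes above are for TMM factors, so these counts have none of their own. The falls gained were Ascl2, Myc and Ephb2 in WT mice, and Nkd1 (-0.98), Tcf7 (-0.91) and Lrp6 (-0.46) in KO mice. The rises below are relative to the other genes, and 3 of 4 in WT and 6 of 7 in KO mice were lost under total-count scaling. Leaving out KO mice 1 and 2 compares 1 KO mouse after DSS with the 4 without it. The spread then comes from the other groups, and the lone mouse is assumed to vary like them. The shares of all genes above are for all mice, so calls in this comparison have no background beside them. The falls that were then no longer called, with the value in all mice in parentheses, were those of Lrp5 at -0.44 (-0.65), Rnf43 at -0.48 (-0.90), Apc at -0.24 (-0.36), Ephb2 at -0.34 (-0.39) and Myc at -0.62 (-1.09), all still negative. Of the 22 falls in KO mice, 8 moved toward no change by more than 1.5 times when read as unlogged folds, with log2 values given here. They were Ascl2 at -2.40 (-3.74), Axin2 at -1.82 (-2.96), Lgr5 at -2.42 (-3.47), Tnfrsf19 at -2.14 (-3.10), Mex3a at -1.97 (-2.74), Smoc2 at -2.06 (-2.75), Msi1 at -1.91 (-2.52) and Fzd7 at -1.25 (-1.85). In bulk RNA, fewer cells of a type and less RNA per cell cannot be told apart.

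Among the stem cell markers, 10 of 13 fell in WT and 11 of 13 in KO mice, where 18.1% and 22.7% of all genes fell. Lgr5 (Ensembl ENSMUSG00000020140, chr10:115450311-115587780, minus strand) was at 22.4, 9.77, 18.9 and 15.5 CPM in WT mice without DSS and at 4.25, 1.74 and 2.29 CPM after it. Its KO values were 13.3, 14.6, 11.9 and 13.4 CPM without DSS and 0.814, 0.179 and 2.45 CPM after it. No mouse after DSS reached the lowest mouse without DSS in either genotype. The log2 fold change was -2.59, SE 0.51, adjusted p = 0.00185 in WT and -3.47, SE 0.56, adjusted p = 0.000296 in KO mice, and the mean CPM after DSS was 0.166 and 0.0862 of that before. With 1 mouse left out at a time, the value in KO mice ran from -4.71 to -2.98. Ascl2 (chr7:142966829-142969264, minus strand) was at 13.4, 8.39, 16 and 10.8 CPM in WT mice without DSS and at 6.28, 2.68 and 5.18 CPM after it. In KO mice it was at 12.3, 11.1, 10.5 and 13.6 CPM without DSS and 0.174, 0.119 and 2.21 CPM after it, the lowest values standing for 2 and 3 reads. It fell in KO mice (-3.74, SE 0.66, adjusted p = 0.000636), while in WT mice the log2 fold change was -1.37, SE 0.56, adjusted p = 0.0698, although those groups did not overlap.

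Smoc2 spread widely in WT mice after DSS, at 19.3, 4.99 and 7.31 CPM, and stood at 3.60, 2.33 and 6.91 CPM in KO mice after DSS, against the 24.2 to 40.5 CPM seen without DSS. It fell in both (WT -1.76, SE 0.41, adjusted p = 0.00553, and KO -2.75, SE 0.44, adjusted p = 0.000372). Lrig1 (chr6:94604529-94700158, minus strand) was among the steadiest genes. It was at 179.9, 169, 167 and 163 CPM in WT mice without DSS and 95.8, 86.9 and 80.7 CPM after it, and fell in both genotypes (WT -0.95, SE 0.12, adjusted p = 2.82e-05, KO -1.45, SE 0.12, adjusted p = 3.39e-07). 4 more fell in both genotypes. They were Slc12a2 (WT -1.23, SE 0.15, adjusted p = 2.69e-05, and KO -1.58, SE 0.15, adjusted p = 2.02e-06) and Rgmb, a co-receptor for BMP signals (WT -0.90, SE 0.15, adjusted p = 0.000338, and KO -1.20, SE 0.15, adjusted p = 2.21e-05). The others were Cdca7, a nuclear protein linked to cell division (WT -0.74, SE 0.11, adjusted p = 0.000169, and KO -1.24, SE 0.11, adjusted p = 1.19e-06) and Hopx, a homeodomain protein (WT -1.02, SE 0.22, adjusted p = 0.00214, and KO -1.56, SE 0.22, adjusted p = 7.20e-05). Cdca7, for example, was at 55.4 to 67.7 CPM in the 8 mice without DSS and 23.5 to 38.7 CPM in the 6 after it, without overlap. Among the scarce genes, Tnfrsf19, a receptor of the TNF family, fell (WT -1.64, SE 0.57, adjusted p = 0.0356, and KO -3.10, SE 0.64, adjusted p = 0.00142), but in WT mice the call was lost without the filter on low counts (adjusted p = 0.0936 in edgeR) and without WT mouse 1 or mouse 3 of the mice not given DSS, or any WT mouse given it. The RNA-binding proteins Mex3a (WT -1.31, SE 0.36, adjusted p = 0.0106, and KO -2.74, SE 0.40, adjusted p = 8.68e-05) and Msi1 (WT -1.76, SE 0.39, adjusted p = 0.00269, and KO -2.52, SE 0.42, adjusted p = 0.000219) fell in both. Slc12a2 had a gene length of 10920 bases in the table without DSS and 6520 bases in the other, so for this gene the gene models and DSS cannot be told apart either. Apc, Tcf7 and Tcf7l2 also differed in length, by less.

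Prom1 and Bmi1 went the other way. Prom1 was at 242, 269, 293 and 311 CPM in WT mice without DSS and 359.5, 408 and 417 CPM after it, and at 275, 264, 262 and 199 CPM and 503, 644 and 388 CPM in the KO mice. Every mouse after DSS was above every mouse without it. Its log2 fold change was 0.50, SE 0.16, adjusted p = 0.0204 in WT and 1.03, SE 0.16, adjusted p = 0.00011 in KO mice, of which the WT rise was lost under total-count scaling. Bmi1, a Polycomb protein, was at 14.4 to 18.7 CPM in the 8 mice without DSS, 17.7, 20 and 18.8 CPM in WT and 27.3, 26.9 and 20.9 CPM in KO mice after DSS. Its rise in KO mice (0.56, SE 0.12, adjusted p = 0.00145) was likewise lost under that scaling, and its value in WT mice was 0.20, SE 0.12, adjusted p = 0.212.

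**Figure D2:**
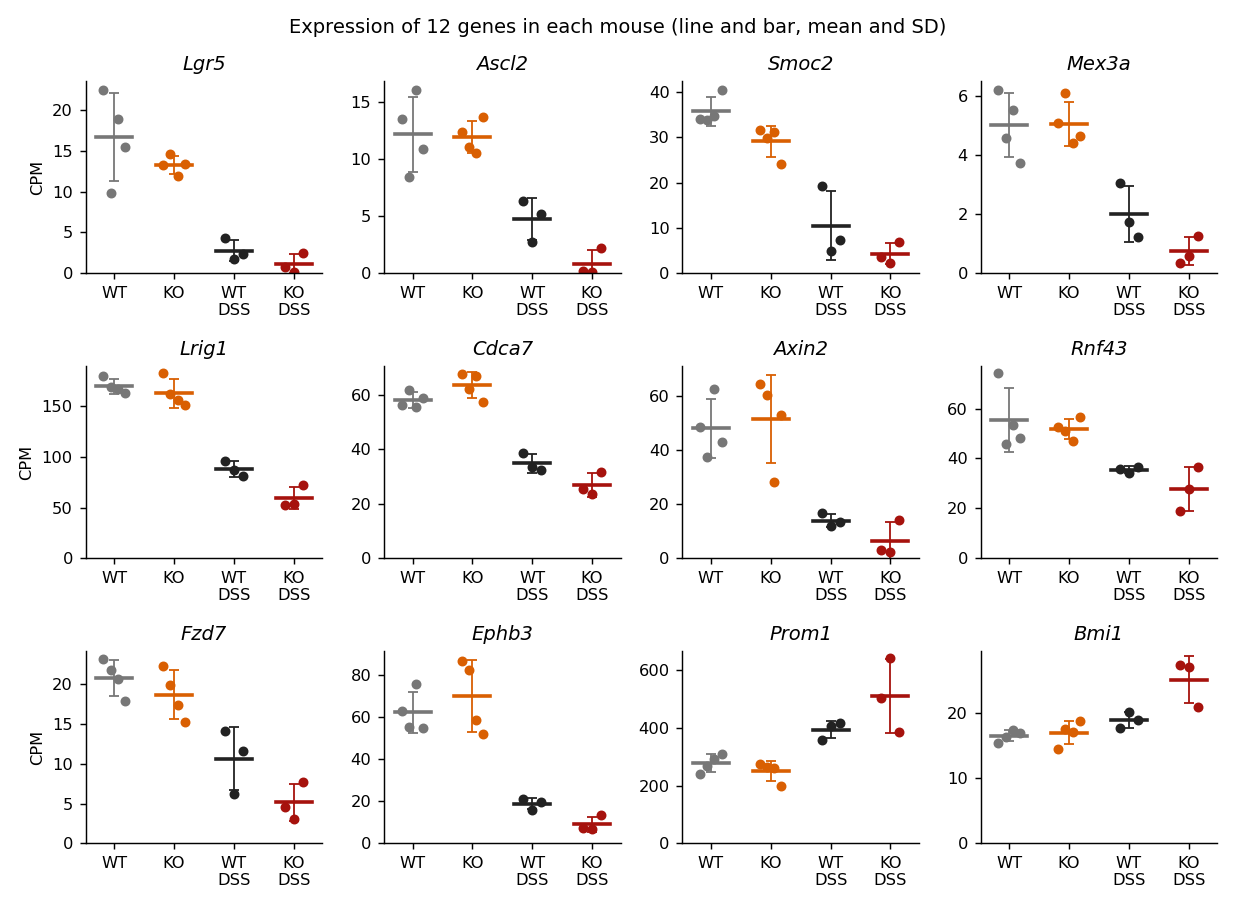
CPM of 12 genes (one panel each, linear axis from 0) in each WT and KO mouse without and after DSS; points are mice, the line is the mean and the bar the SD. Lgr5 after DSS lies between 0.179 and 4.25 CPM, below the lowest mouse without DSS at 9.77 CPM, while Prom1 lies higher after DSS.

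The receptors moved in different directions. Fzd7, the Frizzled receptor linked to crypt stem cells, fell from 23.1, 21.7, 20.6 and 17.8 to 14.1, 6.26 and 11.6 CPM in WT mice (-0.97, SE 0.28, adjusted p = 0.015). In KO mice it fell from 22.2, 19.9, 17.4 and 15.2 to 4.59, 3.10 and 7.71 CPM (-1.85, SE 0.30, adjusted p = 0.000223). The co-receptor Lrp5 fell in both genotypes (WT -0.47, SE 0.14, adjusted p = 0.0141, and KO -0.65, SE 0.14, adjusted p = 0.00149). Its paralogue Lrp6 had values of -0.0046 and -0.10 and did not pass the test with TMM factors. Lgr4, the wider expressed relative of Lgr5, rose in both genotypes, with 183, 142, 124 and 156 CPM in WT mice without DSS and 222, 277 and 214 CPM after it. The log2 fold change was 0.65, SE 0.13, adjusted p = 0.00151 in WT and 0.61, SE 0.13, adjusted p = 0.00161 in KO mice, and under total counts only the WT rise passed. Fzd5 was at 0.25 in WT, not called, and rose in KO mice (0.31, SE 0.11, adjusted p = 0.0352), a call lost without the filter on low counts (adjusted p = 0.0616 in edgeR) and a direction that turned to -0.0485 under total-count scaling.

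All 4 feedback inhibitors tested had negative values in both genotypes. The same 3 fell in each, where 18.1% of all genes fell in WT and 22.7% in KO mice. Axin2 (chr11:108920349-108950783, plus strand) was at 48.8, 37.6, 62.9 and 43.2 CPM in WT mice without DSS and at 16.7, 11.9 and 13.3 CPM after it. In KO mice it went from 64.5, 60.5, 28.2 and 52.9 CPM to 2.91, 2.21 and 14.3 CPM, and KO mice 1 and 2 stood far below all others. The log2 fold change was -1.78, SE 0.53, adjusted p = 0.0207 in WT and -2.96, SE 0.57, adjusted p = 0.00144 in KO mice, and without KO mice 1 and 2 the latter was -1.82, close to the WT value. Znrf3 (WT -1.04, SE 0.19, adjusted p = 0.000608, and KO -1.40, SE 0.19, adjusted p = 4.34e-05) and Rnf43 (WT -0.64, SE 0.19, adjusted p = 0.0164, and KO -0.90, SE 0.19, adjusted p = 0.00172) fell with it. Nkd1 did not pass with TMM factors (WT -0.41, KO -0.61), and was called in KO mice under total-count scaling. Notum, not tested, was at 0.110 to 0.618 CPM without DSS and 0 to 0.141 CPM after it, at or below the floor in all 6 of the latter mice.

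Of the 5 effectors, 1 fell in each genotype, close to the 18.1% of all genes in WT and 22.7% in KO mice. In KO mice 2 rose, where 23.2% of all genes did. Apc, part of the complex that marks β-catenin for degradation, fell in both (WT -0.34, SE 0.10, adjusted p = 0.0125, and KO -0.36, SE 0.10, adjusted p = 0.00754). Ctnnb1 was at 576 to 744 CPM in the 8 mice without DSS, 824, 797 and 749 CPM in WT and 923, 973 and 816 CPM in KO mice after DSS. Its value was 0.26, SE 0.11, adjusted p = 0.0827 in WT mice, where DESeq2 called it (adjusted p = 0.0396), and it rose in KO mice (0.47, SE 0.11, adjusted p = 0.00355), a call lost under total-count scaling. Tcf7l2, the main TCF protein of the intestine, behaved alike (0.31, not called in WT, and 0.41, SE 0.14, adjusted p = 0.0242, called in KO mice and lost under that scaling). Tcf7 (WT -0.26, KO -0.53) and Lef1 (WT -0.41, KO -1.16, the latter with an SE of 0.98) did not pass in either genotype with TMM factors.

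Among the Wnt targets, Ephb3 (chr16:21204755-21223305, plus strand) was at 62.7, 55.4, 75.9 and 55.0 CPM in WT mice without DSS and 21.2, 15.9 and 19.6 CPM after it. In KO mice the values were 86.8, 82.4, 58.8 and 52.1 CPM and 7.33, 6.99 and 13.3 CPM, the lowest of the 14 mice. It fell in WT (-1.72, SE 0.24, adjusted p = 0.000138) and in KO mice (-2.92, SE 0.26, adjusted p = 1.97e-06). Its paralogue Ephb2 had much smaller values, -0.23 in WT, not called, and -0.39, SE 0.11, adjusted p = 0.0124 in KO mice, where it fell. Ephb2 was at 96.8 to 139 CPM in the 8 mice without DSS and 79.9 to 111 CPM in the 6 after it, so these overlapped. Sox9, a transcription factor of crypt cells (WT -0.55, SE 0.15, adjusted p = 0.0101, and KO -0.86, SE 0.15, adjusted p = 0.000361), and Cd44, a hyaluronan receptor (WT -0.69, SE 0.18, adjusted p = 0.00799, and KO -0.81, SE 0.18, adjusted p = 0.00219), fell in both. Sox9 went from 80.8 to 118 CPM without DSS to 48.8 to 70.4 CPM after it, without overlap. Myc, the growth regulator, was at 25.5, 28.9 and 30.8 CPM in WT and 17.5, 18.9 and 30.8 CPM in KO mice after DSS, against 35.3 to 60.7 CPM without it. It fell in KO mice (-1.09, SE 0.20, adjusted p = 0.000443) and had a value of -0.48, SE 0.19, adjusted p = 0.0589 in WT mice, where DESeq2 called it (adjusted p = 0.0421). The cyclins went up: Ccnd1 rose in both (WT 0.35, SE 0.13, adjusted p = 0.0489, and KO 0.60, SE 0.13, adjusted p = 0.00212), although the WT call was lost with RLE size factors (adjusted p = 0.0521 in edgeR) and in DESeq2 (adjusted p = 0.0506), and Ccnd2 rose in WT (0.58, SE 0.12, adjusted p = 0.0023) with 0.29 in KO mice, calls that were lost under total-count scaling. Ccnd2 was at 229, 356 and 304 CPM in WT and 274, 265 and 279 CPM in KO mice after DSS, and 174 to 229 CPM without it.

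**Figure D3:**
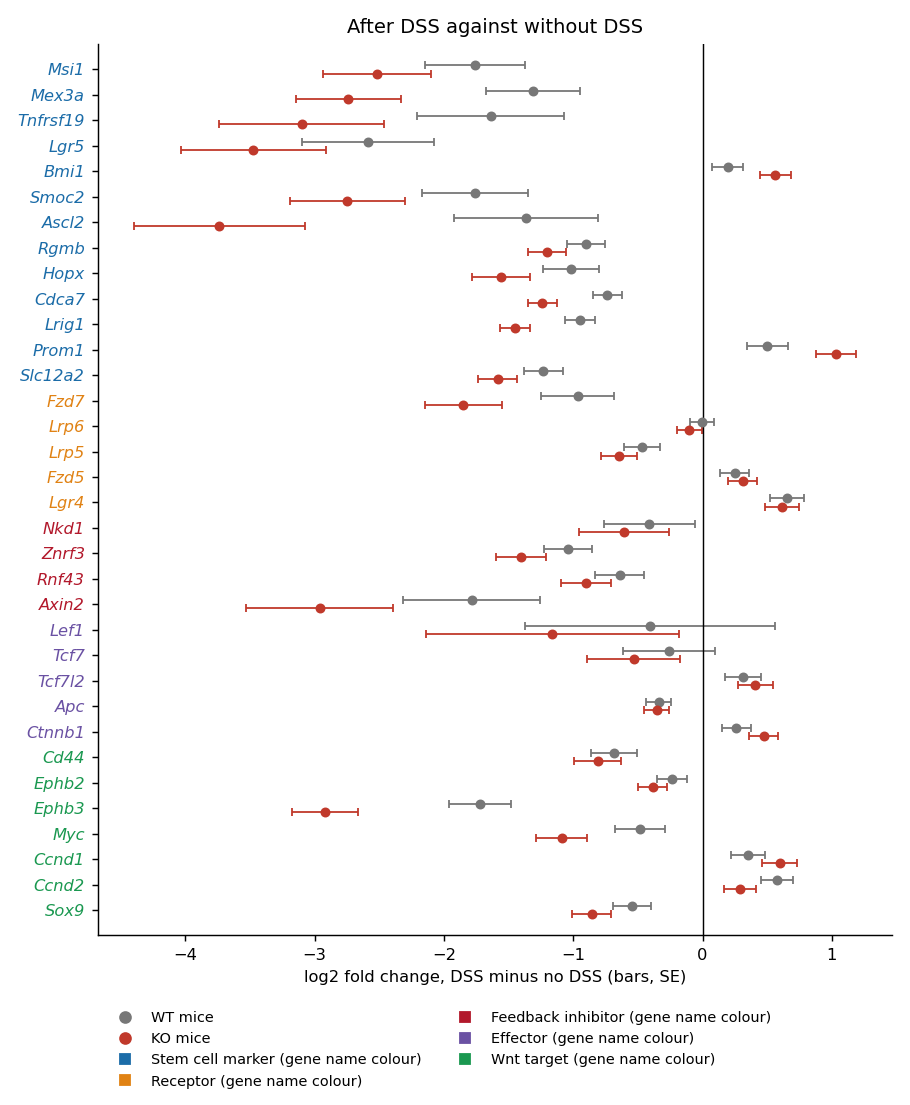
Log2 fold change after DSS against without DSS (x axis, positive is higher after DSS) of the 34 tested genes in WT (grey) and KO (red) mice; bars are SE and gene names are coloured by role. In WT mice 19 genes fell and 4 rose, and in KO mice 22 fell and 7 rose.

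Within the DSS experiment, the genotype comparison asked whether the deletion altered these genes in injured colon. Of 33 genes tested, 9 were lower in KO mice by the unadjusted rule and 1, Bmi1, was higher. The lower genes made up 27.3%, where 3.25% of 14908 genes were lower and 3.98% higher. No gene passed after adjustment (smallest adjusted p = 0.646, edgeR), whereas DESeq2 called 1 of the 33, Ephb3 (adjusted p = 0.0373). In all, 24 of 33 log2 fold changes were negative, beside 7608 of all 14908 genes, and the median was -0.36 beside -0.0051. The lower genes were 6 of 13 stem cell markers, 1 of 5 receptors, 0 of 4 feedback inhibitors, 0 of 4 effectors and 2 of 7 targets. In 7 genes (21.2%, against 6.03% of all genes) every KO mouse was below every WT mouse, namely Ascl2, Cdca7, Ephb2, Ephb3, Lrig1, Msi1 and Tnfrsf19.

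Ephb3 and Lrig1 were the steadiest of these. Ephb3 was at 21.2, 15.9 and 19.6 CPM in WT and 7.33, 6.99 and 13.3 CPM in KO mice (log2 fold change -1.03, SE 0.26, unadjusted p = 0.00338, adjusted p = 0.646). Lrig1 was at 95.8, 86.9 and 80.7 CPM in WT and 53.0, 53.5 and 72.0 CPM in KO mice (-0.56, SE 0.14, unadjusted p = 0.00239, adjusted p = 0.646). These were the genes that kept an unadjusted p below 0.05 whichever of the 6 mice was left out. Ascl2 had the widest gap, with 6.28, 2.68 and 5.18 CPM in WT and 0.174, 0.119 and 2.21 CPM in KO mice (-2.42, SE 0.94, unadjusted p = 0.0403, adjusted p = 0.663), but KO mouse 3 was close to the lowest WT mouse. Its call was lost without the filter on low counts and under total-count scaling, and held in 2 of the 6 fits that left out a mouse. Mex3a (-1.42, SE 0.53, unadjusted p = 0.0258, adjusted p = 0.655) and Fzd7 (-1.04, SE 0.39, unadjusted p = 0.0295, adjusted p = 0.655) lay at least as far below on the log2 scale as Ephb3, with larger errors. Mex3a was at 3.07, 1.74 and 1.23 CPM in WT and 0.349, 0.597 and 1.27 CPM in KO mice, with KO mouse 3 just above the lowest WT mouse. Smaller differences were found for Rgmb (-0.39, SE 0.15, unadjusted p = 0.0293, adjusted p = 0.655), Cdca7 (-0.38, SE 0.14, unadjusted p = 0.0228, adjusted p = 0.646), Slc12a2 (-0.36, SE 0.14, unadjusted p = 0.0311, adjusted p = 0.655) and Ephb2 (-0.23, SE 0.10, unadjusted p = 0.0446, adjusted p = 0.668). Cdca7 was at 38.7, 33.5 and 32.4 CPM in WT and 25.5, 23.5 and 31.7 CPM in KO mice, and Rgmb at 61.9, 51.8 and 52.7 CPM and 38.3, 36.5 and 52.6 CPM. In both, KO mouse 3 lay beside the lowest WT values and KO mice 1 and 2 lower. Ephb2 was at 96.8, 111 and 93.1 CPM in WT and 89.4, 79.9 and 87.2 CPM in KO mice, a narrow gap without overlap, and its call was lost in DESeq2 and in the fit over all 14 mice and held in 1 of those 6 fits. The calls of Rgmb, Cdca7 and Mex3a held in 3 of them, and those of Slc12a2 and Fzd7 in 2. Bmi1 was higher (0.41, SE 0.14, unadjusted p = 0.017, adjusted p = 0.646), with all 3 KO mice above all 3 WT mice, a call that held in 3 of these fits and was lost under total-count scaling.

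The 2 genes taken as markers of the module did not pass. Lgr5 was at 4.25, 1.74 and 2.29 CPM in WT and 0.814, 0.179 and 2.45 CPM in KO mice, the latter from 14, 3 and 52 reads (-1.23, SE 0.74, unadjusted p = 0.138, adjusted p = 0.706). Axin2 was at 16.7, 11.9 and 13.3 CPM in WT and 2.91, 2.21 and 14.3 CPM in KO mice (-1.09, SE 0.74, unadjusted p = 0.196, adjusted p = 0.739). For both, KO mouse 3 was inside the WT range and KO mice 1 and 2 were far below it. Rnf43 had the same order, with 35.8, 34.2 and 36.7 CPM in WT and 19.0, 27.6 and 36.6 CPM in KO mice (-0.36), as had Hopx, with 14.8, 9.79 and 12.3 CPM and 7.09, 6.03 and 12.7 CPM (-0.51). Prom1 mirrored it, since KO mice 1 and 2 were above the WT mice and KO mouse 3 was inside their range (0.37, SE 0.18, unadjusted p = 0.0668, adjusted p = 0.668). The genes that differed least were Apc (0.02), Lrp6 (0.03), Lgr4 (-0.06) and Tcf7 (-0.06).

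The KO mice did not behave alike. Of the 33 genes, mouse 1 was below the WT range in 22 and mouse 2 in 20, but mouse 3 in 10, with 18 of its values inside the range. In 12 genes, among them Lgr5, Axin2, Smoc2, Rnf43 and Myc, mice 1 and 2 were below the WT mice and mouse 3 was not. These counts describe the 33 genes and have no share of all genes beside them. Mice 1 and 2 had the mitochondrial shares given above. They also had the highest summed levels of the T cell list (169 and 106 CPM, against 72.3 in mouse 3 and 49.3 to 97.0 in WT mice; 2 of 10 genes higher by the unadjusted rule) and of the myeloid list (160 and 154 CPM, against 111 and 90.7 to 111; 1 of 8 higher). Their goblet cell list was the lowest, at 16952 and 22439 CPM against 36068 in mouse 3 and 27655 to 39942 in WT mice, with 0 of 7 genes called in edgeR and a median log2 fold change between genotypes of -0.20. The proliferation list was at 541 and 379 CPM against 506 in mouse 3 and 510 to 595 in WT mice, with 1 of 10 genes lower. The fibroblast list was at 46.2 and 58.5 CPM against 28.1 in mouse 3 and 33.4 to 42.5 in WT mice, with 1 of 5 tested genes higher, and the epithelial list at 23890 and 25606 CPM against 21778 and 21175 to 22974, with 0 of 10 called. Over all genes 3.25% were lower and 3.98% higher by this rule. The part of these shares and lists in the result was not tested.

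Without KO mice 1 and 2, a comparison that leaves 1 KO mouse whose spread is assumed from the WT mice, 1 of the 33 genes was lower, Tcf7, and none was higher. None of the 9 genes passed with 1 KO mouse left, and all 9 kept a negative value. Ephb2 was at -0.21, beside -0.23 with all mice, Ascl2 at -1.09 (unadjusted p = 0.0786), Ephb3 at -0.51 (unadjusted p = 0.0582) and Lrig1 at -0.29 (unadjusted p = 0.0999). Mex3a was at -0.67, Fzd7 at -0.47, Cdca7 at -0.14, Rgmb at -0.0790 and Slc12a2 at -0.0769. The values of the markers were 0.0353 for Axin2 and -0.18 for Lgr5, and each of these 11 genes had an adjusted p of 1 in edgeR. Other values moved too, with Bmi1 at 0.15 (0.41 with all mice), and turned for Prom1 at -0.0286 (0.37), Rnf43 at 0.0391 (-0.36), Hopx at 0.0437 (-0.51), Myc at 0.11 (-0.34) and Nkd1 at -0.37 (0.28). Without KO mouse 3, 17 genes were lower, and 4 of them passed after adjustment in edgeR: Axin2 (-2.45, adjusted p = 0.0115), Ascl2 (-4.94, 0.024), Ephb3 (-1.40, 0.0298) and Lrig1 (-0.73, 0.0415). The count was 3 without KO mouse 1, 2 without KO mouse 2 and 3 without WT mouse 1. The 3.25% of all genes is for the fit with all mice, so the counts in this paragraph have no share beside them.

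**Figure D4:**
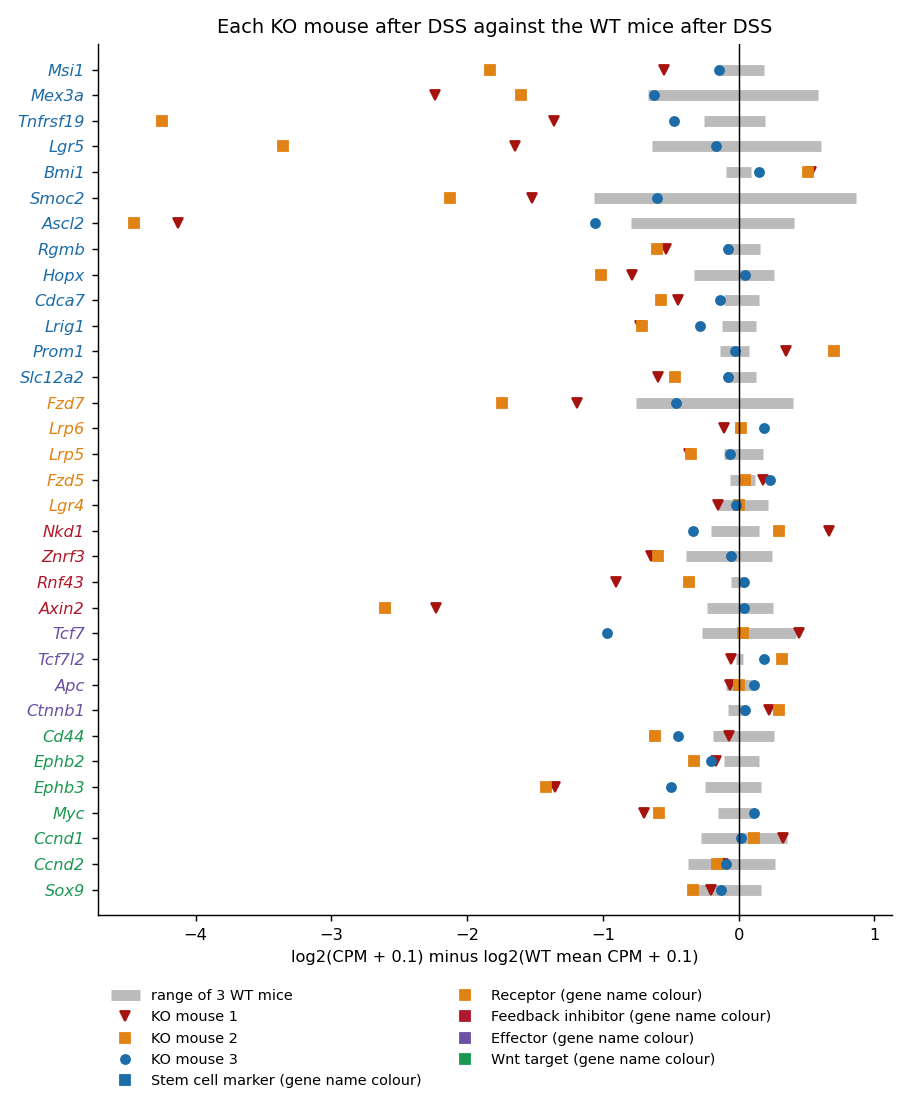
Log2(CPM + 0.1) of each KO mouse after DSS minus that of the mean of the 3 WT mice after DSS, for 33 genes; grey bars give the range of the WT mice and symbols the KO mice. Mouse 1 is below the grey bar in 22 genes, mouse 2 in 20 and mouse 3 in 10, counts with no share of all genes beside them.

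The genotype difference was then compared between the experiments directly, as the interaction in the fit over 14 mice. By the unadjusted rule 7 of 34 genes had a lower value, where 2.3% of 16370 genes did, and 2 a higher one, where 1.73% did. The lower genes were Ephb3 (-1.20, SE 0.33, unadjusted p = 0.0028, adjusted p = 0.987), Cdca7 (-0.50, SE 0.15, unadjusted p = 0.00517, adjusted p = 0.987), Lrig1 (-0.50, SE 0.16, unadjusted p = 0.00695, adjusted p = 0.987), Ascl2 (-2.37, SE 0.83, unadjusted p = 0.0139, adjusted p = 0.987), Mex3a (-1.43, SE 0.53, unadjusted p = 0.0159, adjusted p = 0.987), Myc (-0.61, SE 0.27, unadjusted p = 0.0395, adjusted p = 0.987) and Fzd7 (-0.88, SE 0.40, unadjusted p = 0.0435, adjusted p = 0.987). The higher ones were Prom1 (0.53, SE 0.22, unadjusted p = 0.0314, adjusted p = 0.987) and Bmi1 (0.37, SE 0.17, unadjusted p = 0.048, adjusted p = 0.987). When each of the 14 mice was left out in turn, the calls of Ephb3, Cdca7, Lrig1 and Ascl2 held in all 14 fits, Mex3a in 13, Prom1 in 9, Myc in 5, and Fzd7 and Bmi1 in 4. Bmi1 was also lost with RLE size factors, in DESeq2, without the filter and under total counts, and Prom1 under total counts. Lgr5 (-0.89, SE 0.71, unadjusted p = 0.236, adjusted p = 0.987) and Axin2 (-1.18, SE 0.73, unadjusted p = 0.135, adjusted p = 0.987) did not pass, and neither did any of the 34 genes after adjustment in edgeR or DESeq2 (smallest adjusted p = 0.987 in edgeR). In all, 28 of 34 values were negative, beside 50.3% of all genes, with a median of -0.31. Leaving out KO mice 1 and 2 leaves 1 KO mouse after DSS. All of these genes then kept their sign and moved toward 0. Ascl2 was at -1.07, Mex3a at -0.69, Ephb3 at -0.68, Fzd7 at -0.32, Cdca7 at -0.28, Lrig1 at -0.24 and Myc at -0.16. Prom1 was at 0.12 and Bmi1 at 0.0922. The interaction uses the mice of the comparisons above, so it repeats their values rather than adding to them.

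**Figure D5:**
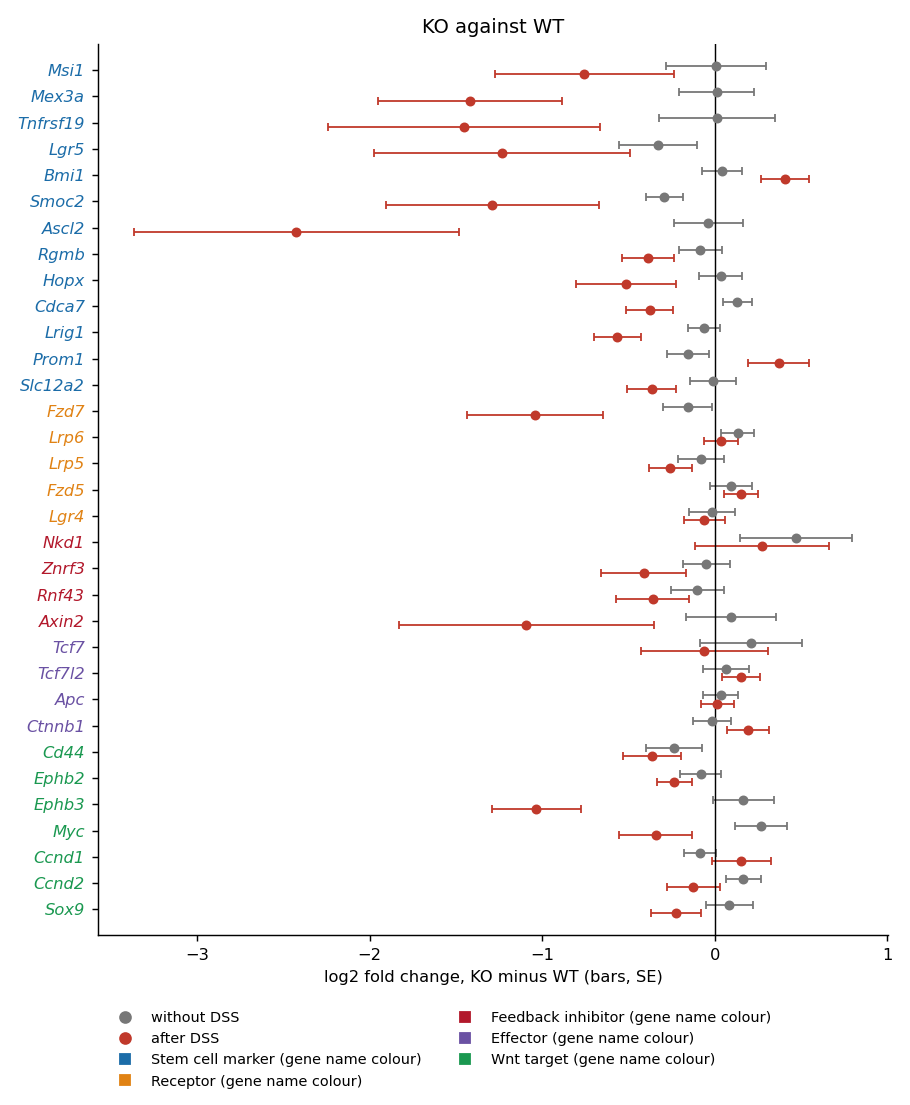
Log2 fold change of KO against WT (x axis, positive is higher in KO) without DSS (grey) and after DSS (red); bars are SE and gene names are coloured by role. Without DSS the points lie between -0.33 and 0.47, and after DSS between -2.42 and 0.41.

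The genes with a miR-29 seed match were compared with those without one. After DSS, 2 of 9 (Ephb3 and Cdca7, shown above) were lower in KO mice and none was higher, with a median of -0.12, and 7 of 24 genes without a match were lower and 1 was higher, with a median of -0.38, where 3.25% of all genes were lower and 3.98% higher. After DSS against without it in WT mice, 5 of 9 fell and 1 rose, with a median of -0.34, and 14 of 25 without a match fell and 3 rose, with a median of -0.90, where 18.1% of all genes fell and 20.2% rose. In KO mice, 5 of 9 fell and 2 rose, with a median of -0.36, and 17 of 25 without a match fell and 5 rose, with a median of -1.20, where 22.7% of all genes fell and 23.2% rose. In the interaction 2 of 9 and 5 of 25 had lower values, where 2.3% of all genes did, and 0 and 2 had higher ones, where 1.73% did. No test was made of this split.

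The rest of the Wnt pathway was followed in 5 further lists, whose counts with DSS are read against the 18.1% of all genes that fell and 20.2% that rose in WT mice, and the 22.7% and 23.2% in KO mice. Of 19 Wnt ligand genes, 5 or 6 passed the filter in each comparison. The 19 together summed to only 4.01 to 13.5 CPM per mouse, so the ligand values below come from genes at low levels. In each group 7 or 8 of them were at 0 in every mouse. In WT mice after DSS, Wnt5b fell (-2.21) and Wnt8b rose (1.76). In KO mice Wnt5b fell (-2.28) and Wnt5a rose (1.45). Without DSS, 1 of 5 ligands tested was lower in KO mice, Wnt5a (-1.44, unadjusted p = 0.0211, edgeR), where 1.58% of all genes were. In the interaction 1 of 6 ligands had a higher value, where 1.73% of all genes did. The 4 R-spondin genes summed to 0.282 to 1.43 CPM after DSS, and 1 was tested and not called. Of 12 other Wnt receptors, 11 were tested with DSS, and 2 fell and 2 rose in WT mice, 3 fell and 2 rose in KO mice, shares near those of all genes. Fzd6 rose the most (3.64 in WT and 4.04 in KO mice), from a mean of 0.83 to 10.5 CPM in WT mice, and Fzd9 fell the most (-2.81 and -4.16). Ror2, a receptor of the Wnt5a type, fell in both (-1.31 and -1.82). Between genotypes after DSS, 1 of 10 was lower in KO mice, Ror1 (-0.67, unadjusted p = 0.0452), where 3.25% of all genes were. Of 13 inhibitors that are secreted or sit in the membrane, 5 were tested, and Kremen2, a membrane co-receptor of the Dickkopf proteins, rose (0.71 and 1.10). Of 20 cytoplasmic and secretion genes tested, 7 fell and 1 rose in WT mice (median -0.21), and 12 fell and 2 rose in KO mice (median -0.41). Among them were the tankyrase Tnks (-0.57 in both), Amer1 (-0.43 and -1.06), Bcl9l (-0.46 and -0.83) and Dvl3 (-0.43 and -0.55). After DSS, 0 of these 20 genes passed the unadjusted rule between genotypes in edgeR, and their median was -0.10. Without DSS, 2 of the 20 were higher in KO mice, Amer1 (0.53, unadjusted p = 0.00611) and Ctnnbip1 (0.33, unadjusted p = 0.0309), where 2.09% of all genes were. In the interaction 2 were lower, Amer1 (-0.62, unadjusted p = 0.0101) and Dvl2 (-0.71, unadjusted p = 0.02), where 2.3% of all genes were.

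Lists of other cell types were counted beside the falls above, with the same shares of all genes as background. In WT mice 6 of 7 colonocyte genes and 9 of 10 general epithelial genes rose, none of either list fell, and 3 of 10 proliferation genes fell, which is not far from the 18.1% of all genes. In KO mice 6 of 7 and 8 of 10 rose, and 5 of 10 proliferation genes fell. The T cell list had 0 of 10 genes called in either genotype, and the myeloid list had 1 of 8 higher in WT and 5 of 8 higher in KO mice. Of 5 B cell genes, 0 were called in WT mice (median -0.78) and 4 fell in KO mice (median -2.25). Their median sum per mouse was 5.83 CPM without DSS and 1.80 CPM after it in WT mice. In KO mice it was 5.84 CPM without DSS and 2.09 CPM after it, so the sums were lower in both genotypes. Goblet cell genes went both ways, with 2 of 7 lower and 3 higher in WT mice and 3 lower and 3 higher in KO mice. The part of these lists in the values of the 35 genes was not tested.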

How the data were processed

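RNA from colon tissue, named as crypts in GEO, was extracted with TRIzol and made into libraries with the NEBNext Ultra Directional kit, 1 library per mouse. The authors deposited raw counts per gene in a table for each experiment. The submitters' processing notes name HISAT2 and DESeq2. The counting tool, strand setting and genome build are not given in the sources used here. Gene positions equalled GENCODE vM21 (GRCm38) for 34 of the 35 genes without DSS and for 33 after DSS. The 14 FPKM columns and the columns of the authors' own comparisons (fold changes and p-values) were not used. The study excluded 1 WT and 1 KO sample from analysis without saying which. All 14 columns were used, and their 4 and 3 per group equal the numbers the study gives for its sequencing.

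Counts were tested with edgeR 4.0.16 (R 4.3.3, robust quasi-likelihood fit, TMM factors, filterByExpr with a minimum count of 10 and total of 15, Benjamini-Hochberg over all genes tested) and SE was the absolute log2 fold change divided by the square root of F. Genotype was tested within each table (15441 and 14908 genes). DSS and the interaction were tested in a single fit over the 14 mice for the genes in both tables (16370 of 54378). CPM were put on the scale of that fit. Genotype and interaction calls used an unadjusted p of 0.05, since the study gives a p cutoff of 0.05 for genes between genotypes and names no adjustment, and DSS calls an adjusted p of 0.05. Depth sets the floor, and 3 counts equal 0.141 to 0.195 CPM. P-values measure the spread between the separate mice of each group. The counts carry no molecular identifiers, and counting error is present at every level, largest relative to the count near that floor.

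All 35 genes are accounted for. Full statistics were given for the genes past the call rule in each comparison and for Lgr5 and Axin2, and the other lists by counts, medians and up to 4 examples. The genes, lists and tests were chosen with earlier results of these data known. Alternatives were RLE size factors, DESeq2 1.42.0, no filter, all 14 mice, genes of equal length, a replicate block and leaving out each mouse. Total-count scaling, a block on the DSS column numbers and leaving out KO mice 1 and 2 after DSS were chosen after seeing the data. The pipeline was tested on simulated data before use.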

Additional observations from a re-analysis of the deposited data

Results flagged for a closer look

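By the interaction in edgeR at an unadjusted p of 0.05, the genotype difference was called as differing between the experiments for 9 genes. Of the 34 tested, 7 were lower, where 2.3% of all genes were, and 2 were higher, where 1.73% were. The log2 values were -2.37 for Ascl2, -0.50 for Cdca7, -1.43 for Mex3a, -0.50 for Lrig1, -0.88 for Fzd7, -1.20 for Ephb3 and -0.61 for Myc, and 0.53 for Prom1 and 0.37 for Bmi1. None passed after adjustment (adjusted p = 0.987, edgeR). Leaving out KO mice 1 and 2 leaves 1 KO mouse after DSS. The 9 values then kept their sign and moved toward 0, from -1.07 for Ascl2 to 0.12 for Prom1. The values of Fzd7 and Bmi1 passed in 4 of the 14 fits that left out a mouse, Myc in 5, Prom1 in 9, Mex3a in 13 and the other 4 genes in all 14.

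A mouse far from the other 3 of its group was found in 4 of 70 groups of 4 checked, where chance gives about 1 in 20. Smoc2 was at 40.5 CPM in WT mouse 4 without DSS, against 33.8 to 34.7 CPM in the others. Lgr4 was at 174 CPM in KO mouse 1 without DSS, against 139 to 143 CPM. In KO mouse 4 without DSS, Lrp6 was at 130 CPM (129.5), against 149 to 150 CPM, and Lef1 was at 1.88 CPM, against 0.0562 to 0.349 CPM. That mouse also had the highest sum of the T cell list in its group, 187 CPM against 36.2 to 90.1 CPM. The part of this list in the Lef1 value was not tested.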

How the results depend on the processing

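The DSS falls were the steadiest results. The shares of all genes given above are for the main fits, so the counts below have none beside them. Leaving out each mouse in turn gave 13 to 21 lower and 2 to 5 higher genes in WT mice and 22 to 23 lower and 5 to 8 higher in KO mice, the lowest WT count without WT mouse 3 after DSS. In WT mice the calls of Ccnd1 held in 7 of 14 such fits, Tnfrsf19 in 9, Axin2, Lrp5 and Prom1 in 12, and Apc, Fzd7, Mex3a, Rnf43 and Sox9 in 13, and in KO mice Fzd5 in 10, Tcf7l2 in 11 and Ephb2 in 13. Some falls varied widely in size. In KO mice Ascl2 ran from -6.27 to -3.24, Lgr5 from -4.71 to -2.98, Axin2 from -4.32 to -2.54, Tnfrsf19 from -4.11 to -2.53 and Mex3a from -3.41 to -2.41. In WT mice Smoc2 ran from -2.54 to -1.40. The rises were not steady: total-count scaling left 1 in each genotype and turned Fzd5 in KO mice to -0.0485, and leaving out KO mice 1 and 2 left 2 in KO mice, with 1 KO mouse after DSS. The others lost their calls there but stayed positive, at 0.46 for Tcf7l2 (0.41 with all mice), 0.41 for Fzd5 (0.31), 0.47 for Ccnd1 (0.60), 0.34 for Ctnnb1 (0.47) and 0.32 for Bmi1 (0.56). For genotype without DSS, leaving out a mouse gave 0 to 3 lower, 0 to 2 higher and 0 adjusted calls, Axin2 ran from -0.0303 to 0.31 (-0.0107 without WT mouse 2), and all 14 mice in a single fit gave 0 lower genes. The deviations of same-numbered mice correlated at -0.03, 0.15, -0.19 and -0.13, which shows no steady pairing of WT with KO mice. A replicate block gave 1 lower gene and 1 higher, Myc. The DSS columns carry numbers that are not those of the labels. By these numbers the deviations correlated at -0.06, 0.05 and 0.04. The same-numbered KO mouse was the best match for WT mice 2 and 3 but not for WT mouse 1. With 3 mice per group this cannot decide whether the numbers pair the mice. A replicate block on these numbers gave 9 lower, 1 higher and 0 adjusted calls for genotype after DSS, with Cd44 and Myc in place of Ephb2 and Mex3a. For genotype after DSS, leaving out a mouse gave 2 to 17 lower, 0 to 2 higher and 0 to 4 adjusted calls. DESeq2, no filter and all 14 mice each gave 2 higher genes, total counts gave 0, and adjusted calls were 1 in DESeq2 and 2 without a filter (Ephb3 and Lrig1). Without KO mice 1 and 2 there were 1 lower and 0 higher genes, Axin2 turned to 0.0353, and Prom1, Rnf43, Hopx, Myc and Nkd1 also changed sign. The interaction gave 5 to 17 lower, 0 to 3 higher and 0 to 1 adjusted calls when a mouse was left out. RLE, DESeq2 and no filter each gave 1 higher gene, and total counts gave 0. Leaving out KO mice 1 and 2 leaves 1 KO mouse after DSS. The interaction values of the called genes then moved toward 0, as given above, and that of Lgr5 turned to 0.14. The cause was not tested. Depth limits Notum, Lef1 and, in KO mice after DSS, Ascl2, Lgr5, Tnfrsf19, Msi1 and Mex3a, which rest on few reads. In those mice Tnfrsf19 had 0 to 27 reads, Msi1 had 3 to 17 and Mex3a had 6 to 27.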
